A study of Mus musculus with 13 samples.

Results

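The neural POU genes *Pou3f1*, *Pou3f2*, *Pou3f3*, *Pou3f4*, *Pou4f1*, *Pou4f2* and *Pou4f3* are described here, 7 of the 22367 protein-coding genes placed on chromosomes 1 to 19, X and Y by the GENCODE vM1 annotation of the mouse mm9 build. They were taken by name, with no threshold on a measured value, but with earlier results of these data known. For each gene, ChIP-seq peaks were counted that overlapped by at least 1 bp the window of 1 kb either side of the start site, called the start window below, or the gene body, which is the gene record from end to end. The lists come from mouse embryonic stem cells (mESCs) labelled as a male (XY) wild-type (WT) 129/1 line: AEBP2 replicates 1 and 2, H3K27me3 replicates 1 and 2, and a single sample of FS2-AEBP2. FS2-AEBP2 is AEBP2 with a Flag-StrepII tag at its N-terminus, expressed from a plasmid and pulled down by another protocol than the endogenous protein, and the study's methods name E14 mESCs for it. The antibody label of the mark reads H3K27 without a methylation state, and the study names it H3K27me3.

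The lists held 2877 and 6779 AEBP2 peaks, 2884 FS2-AEBP2 peaks, and 14112 and 9275 H3K27me3 peaks. They give no read counts, so depth is unknown, and where no peak was called the signal may have been under the threshold of the peak caller. The deposited list names appear to swap the 2 H3K27me3 replicate numbers, so which of those replicates is 1 and which is 2 is uncertain. Each peak carries a whole-number score on a scale that is not stated, so scores are given only as a rank, the percentage of peaks in the same list with a lower score. Of 8 mESC markers listed, 7 were found in the annotation, and 6 of them, *Pou5f1*, *Nanog*, *Sox2*, *Esrrb*, *Zfp42* and *Dppa5a*, had no start-window peak in any list. The remaining one, *Klf4*, had a peak of 675 bp in the FS2-AEBP2 list and one of 602 bp in H3K27me3 replicate 1. *Esrrb* had gene-body peaks in all 5 lists. Over all genes, from 6.53% (FS2-AEBP2) to 22.3% (AEBP2 replicate 2) had a start-window peak in a given list, so lacking one is common. Only 2 of the 7 markers had a CpG-island-like region, as defined below, in the start window. Peaks also do not measure expression, so these markers are no check of the cell type and bear on the chromatin of these genes only.

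POU proteins are transcription factors that bind DNA through a POU-specific domain joined to a homeodomain. The Pou3f proteins act in neural progenitors, neurons, glia and the inner ear, and the Pou4f proteins act late in the differentiation of sensory neurons of the ganglia, retina and ear. Polycomb repressive complex 2 (PRC2) methylates lysine 27 of histone H3 and is found in mESCs mostly at CpG islands of silent developmental genes, and AEBP2 is one of its accessory subunits.

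Each of the 7 genes is short. The records ran from 1182 bp (*Pou3f4*) to 4480 bp (*Pou4f1*). The 4 Pou3f genes have a single exon, *Pou4f2* and *Pou4f3* have 2 exons, and *Pou4f1* has 3. Every start site lay inside a CpG-island-like region, defined on mm9 by joining 500 bp windows in which GC reached 55% and the observed CpG count reached 0.65 of the count expected from base composition. A start window of 2001 bp held a median of 143 CpG dinucleotides over the 7 members, against 61 over all genes. *Pou3f1* had the most, with 239, and *Pou3f4* the fewest, with 75. The region over the *Pou3f4* start site was also the shortest, at 970 bp, whereas that over the *Pou3f2* start site was the longest, at 3850 bp.

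The 250 bases before the start site of 6 members are shown because the peaks at these genes differ in whether they reach this stretch. They are written 5′ to 3′ along the gene, as mm9 sequence, with each CpG dinucleotide in capitals. The start site is that of GENCODE for *Pou3f1* and that of RefSeq, matched to mm9, for the others.
Pou3f1, chr4:124334646-124334895 (+): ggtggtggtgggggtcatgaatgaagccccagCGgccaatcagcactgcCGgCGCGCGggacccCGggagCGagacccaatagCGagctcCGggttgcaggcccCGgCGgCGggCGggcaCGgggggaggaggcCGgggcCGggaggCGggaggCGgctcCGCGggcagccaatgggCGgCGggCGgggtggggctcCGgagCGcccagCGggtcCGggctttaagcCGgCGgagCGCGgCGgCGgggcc
Pou3f2, chr4:22415514-22415763 (-): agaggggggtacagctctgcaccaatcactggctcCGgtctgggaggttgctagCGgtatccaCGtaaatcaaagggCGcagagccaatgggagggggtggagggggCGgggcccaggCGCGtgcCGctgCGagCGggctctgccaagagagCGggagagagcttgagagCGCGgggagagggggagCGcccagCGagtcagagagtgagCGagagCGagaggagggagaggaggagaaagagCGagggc
Pou3f3, chr1:42752363-42752612 (+): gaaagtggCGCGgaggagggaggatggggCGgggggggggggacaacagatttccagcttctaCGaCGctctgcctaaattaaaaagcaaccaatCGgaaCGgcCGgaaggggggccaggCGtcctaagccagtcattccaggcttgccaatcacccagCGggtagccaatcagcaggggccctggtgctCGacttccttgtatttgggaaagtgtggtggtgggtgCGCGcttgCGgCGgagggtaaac
Pou3f4, chrX:108009468-108009717 (+): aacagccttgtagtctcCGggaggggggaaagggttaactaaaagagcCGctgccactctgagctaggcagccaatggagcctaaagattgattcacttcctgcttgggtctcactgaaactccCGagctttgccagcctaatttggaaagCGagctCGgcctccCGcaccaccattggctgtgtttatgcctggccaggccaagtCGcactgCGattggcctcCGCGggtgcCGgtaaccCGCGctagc
Pou4f1, chr14:104867217-104867466 (-): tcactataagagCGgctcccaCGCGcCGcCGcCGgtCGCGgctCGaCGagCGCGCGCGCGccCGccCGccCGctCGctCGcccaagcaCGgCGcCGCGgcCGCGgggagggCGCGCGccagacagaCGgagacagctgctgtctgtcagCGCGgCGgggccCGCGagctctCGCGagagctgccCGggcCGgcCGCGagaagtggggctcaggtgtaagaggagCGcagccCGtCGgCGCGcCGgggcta
Pou4f2, chr8:80960547-80960796 (-): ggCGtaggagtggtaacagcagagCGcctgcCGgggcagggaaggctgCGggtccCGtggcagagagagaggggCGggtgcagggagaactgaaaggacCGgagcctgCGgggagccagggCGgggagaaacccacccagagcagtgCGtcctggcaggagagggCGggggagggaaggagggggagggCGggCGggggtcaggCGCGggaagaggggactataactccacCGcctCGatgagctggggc
The *Pou4f1* stretch held 47 CpGs, the *Pou3f1* stretch 33, and the other stretches between 13 (*Pou3f4*) and 18 (*Pou3f2*). All 250 bases of each stretch were inside a peak in both H3K27me3 replicates. In AEBP2 replicate 2 the stretches were covered in full except that of *Pou3f4*, of which 65 bases were covered. In AEBP2 replicate 1 and in the FS2-AEBP2 list, the *Pou3f2* and *Pou3f3* stretches were covered in full and those of *Pou3f1*, *Pou3f4* and *Pou4f1* not at all. The uncovered stretches included those with the most CpGs and the one with the fewest, and a relation of CpG count to coverage was not tested. The *Pou4f2* stretch was covered in full in AEBP2 replicate 1 and not at all in the FS2-AEBP2 list. The octamer ATGCAAAT, a classical POU factor motif, was searched on both strands of the start windows. It was found in 0 of 7 members and in 9.04% of all start windows, a share at which few or none of 7 genes would hold it.

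All 7 genes had an H3K27me3 peak in the start window in both replicates, and 5 of them had a peak in all 5 lists. Among all 22367 genes, 17.0% had a start-window peak in H3K27me3 replicate 1, 17.7% in replicate 2, 15.0% in both, and 4.57% in all 5 lists. AEBP2 replicate 1 had a start-window peak at 5 of the 7 genes (9.08% of all genes), and AEBP2 replicate 2 at all 7 (22.3% of all genes). Both AEBP2 replicates had one at 5 of 7 (8.44% of all genes). FS2-AEBP2 had a start-window peak at 6 of 7 (6.53% of all genes). *Pou3f4* was missed in AEBP2 replicate 1 and in FS2-AEBP2, and *Pou4f1* in AEBP2 replicate 1.

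The gene body gave nearly the same picture. A peak overlapped it in 6 of 7 members in AEBP2 replicate 1 (10.3% of all genes), 7 of 7 in AEBP2 replicate 2 (24.9%) and 6 of 7 in the FS2-AEBP2 list (7.69%). H3K27me3 peaks overlapped the gene body of 7 of 7 members in replicate 1 (20.8% of all genes) and in replicate 2 (20.2%). The difference from the start window was *Pou4f1*, whose AEBP2 replicate 1 peak lay in the gene but outside the window.

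Since all the members have CpG-rich promoters, the same counts can be set beside the 12310 genes with a CpG-island-like region in the start window. Of these, 16.0% had a start-window peak in AEBP2 replicate 1, 39.0% in AEBP2 replicate 2 and 11.4% in the FS2-AEBP2 list. H3K27me3 peaks were present at 24.5% of them in replicate 1 and 27.5% in replicate 2. A closer reference is the 3349 genes with a start-window H3K27me3 peak in both replicates, of which 40.9% had an AEBP2 replicate 1 peak, 68.3% an AEBP2 replicate 2 peak and 38.2% an FS2-AEBP2 peak. The member counts of 5, 7 and 6 of 7 were each above these shares. No test was made, because the members are few and were not chosen blind to these data.

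**Figure D1:**
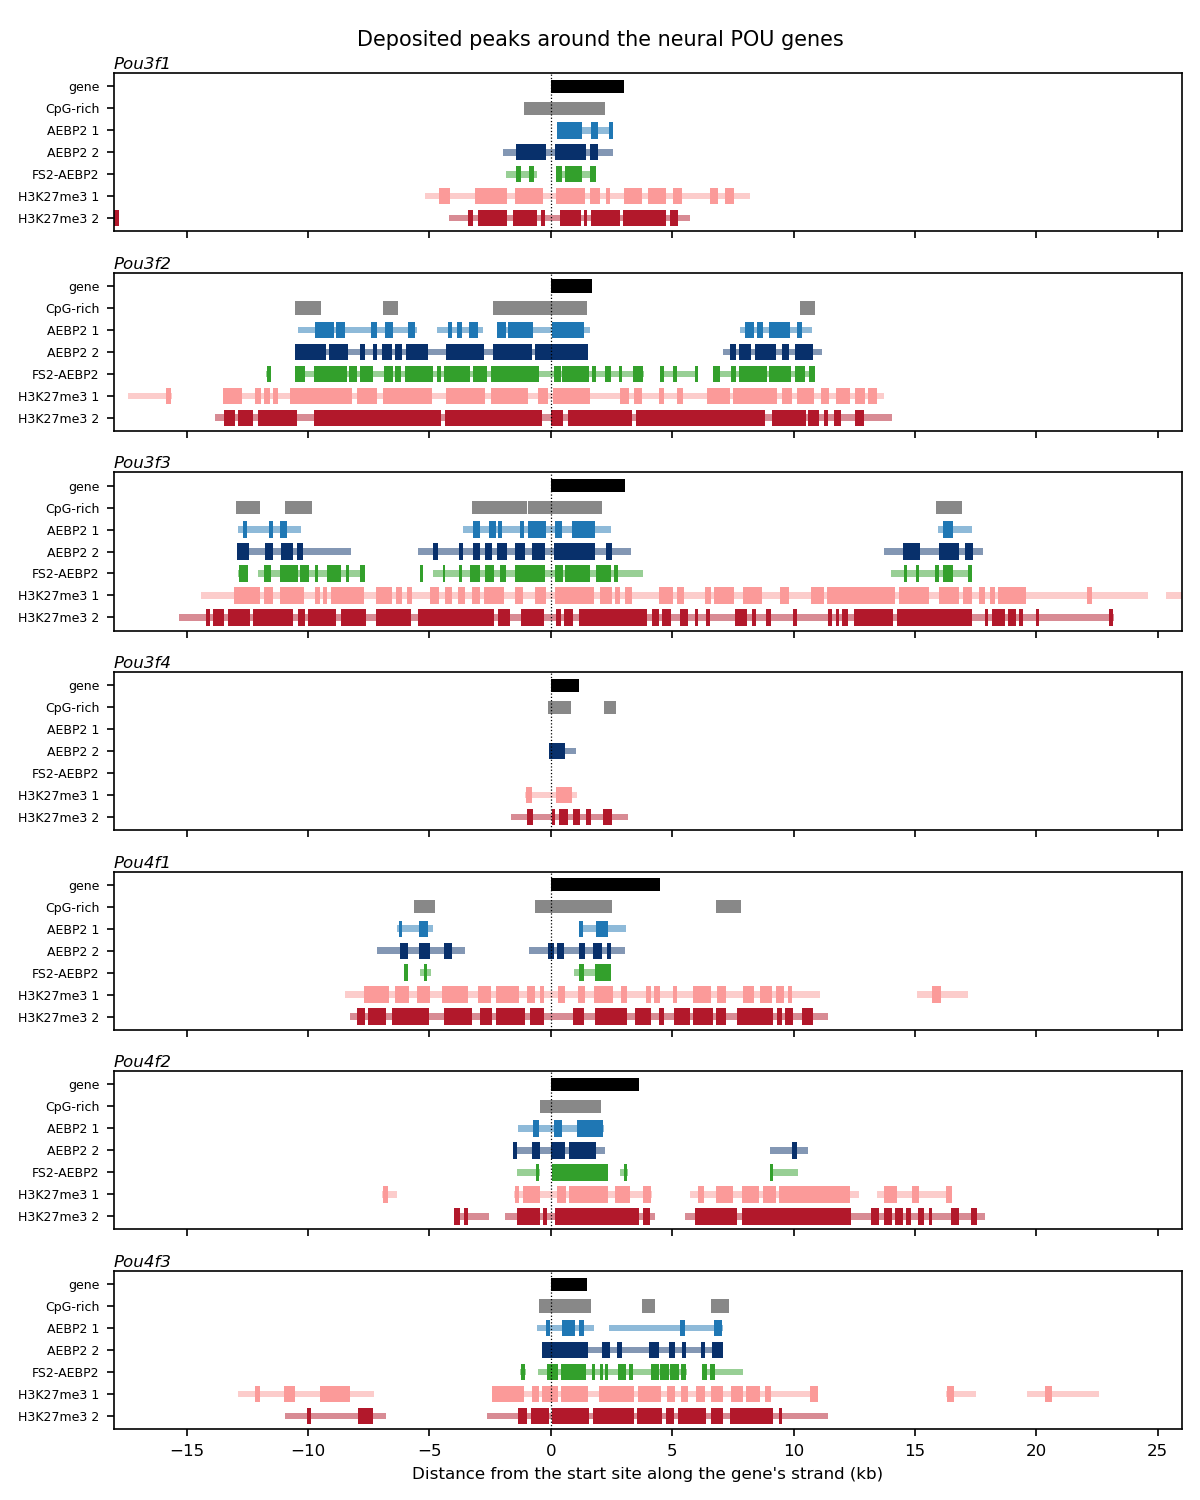
Peaks of the 5 lists around each member, against distance from the start site in kb along the gene's strand. Black is the gene, grey the CpG-rich regions, thin bars whole peaks and thick blocks the stretches that passed the stricter threshold of the peak caller. H3K27me3 peaks spanned all 7 start sites in both replicates, and most AEBP2 and FS2-AEBP2 peaks within them touched a CpG-rich region.

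*Pou3f2* (Brn2), a factor of neural progenitors and hypothalamic neurons, lies on chr4:22413791-22415480 on the minus strand. Its longest start-window peak measured 3820 bp in AEBP2 replicate 1, 12080 bp in AEBP2 replicate 2, 14379 bp in the FS2-AEBP2 list, and 27210 and 27868 bp in H3K27me3 replicates 1 and 2. The AEBP2 replicates therefore differed in length at this gene far more than the H3K27me3 replicates did. In AEBP2 replicate 1 the region upstream was covered as well, but by separate peaks of 1880 and 4931 bp. Ranks were 94.9, 96.8, 93.9, 95.0 and 95.2% in the same order of lists, so the peak was near the top of each list. A further AEBP2 peak lay downstream of the gene in each list, from 7785 to 10740 bp after the start site in AEBP2 replicate 1, from 7090 to 11151 bp in replicate 2 and from 6689 to 10883 bp for FS2-AEBP2. It reached a separate CpG-rich region of 600 bp in all 3 lists.

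*Pou3f3* (Brn1), which acts in cortical neurons and in the kidney, lies on chr1:42753991-42757052 on the plus strand and had the longest H3K27me3 peaks of the 7 genes. The peak measured 6125 bp in AEBP2 replicate 1, 8789 bp in AEBP2 replicate 2, 8656 bp for FS2-AEBP2, and 39031 and 38545 bp in the H3K27me3 replicates. In the H3K27me3 lists 99.9% of peaks were shorter than this one in either replicate. Its ranks by score were 85.0, 94.0, 95.6, 98.9 and 95.7%. The GENCODE record of *Pou3f3* begins at its coding sequence, and the RefSeq start site lies at -1378 bp from it, still inside the peak of each list.

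*Pou3f1* (Oct6), a regulator of myelination by Schwann cells, lies on chr4:124334896-124337899 on the plus strand. In AEBP2 replicates 1 and 2 its longest start-window peak measured 2304 and 4505 bp, in the FS2-AEBP2 list 1674 bp, and in the H3K27me3 replicates 13398 and 9927 bp. Ranks were 88.3, 92.7, 91.1, 92.9 and 95.2%. The start site itself was inside the AEBP2 replicate 2 peak, which ran from -1960 to 2544 bp, and was outside a peak in the other AEBP2 lists. The AEBP2 replicate 1 peak began 254 bp after the start site, and the FS2-AEBP2 list had a peak on either side, one from -1863 to -574 bp and one from 196 to 1869 bp. A pseudogene record of the same name overlaps the gene, so peaks at both records are the same peaks.

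*Pou3f4* (Brn4), an X-linked gene needed in the mesenchyme of the inner ear, lies on chrX:108009729-108010910 on the plus strand and differed from the other members. It had no peak in AEBP2 replicate 1 or in the FS2-AEBP2 list, a 1120 bp peak in AEBP2 replicate 2, and H3K27me3 peaks of 2143 and 4824 bp. These were the shortest peaks of any member in the lists where it had one. The AEBP2 replicate 2 peak had a score above 7.60% of its list, whereas the scores of the other 6 members in that list were above 90.6 to 97.6%. The H3K27me3 peaks ranked at 88.0 and 54.1%, and 51.1% of the peaks of replicate 1 were shorter than its peak there. The AEBP2 call at *Pou3f4* therefore rests on 1 list and on a peak of low score. The lowest CpG count of the members, 75, also belonged to this gene. It is also the only member on the X chromosome, in cells labelled as male (XY). The part of sequence or of chromosome in its peaks was not tested.

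*Pou4f3* (Brn3c), required for the survival of inner ear hair cells, lies on chr18:42554251-42555747 on the plus strand. Its peak measured 2355 bp in AEBP2 replicate 1, 7441 bp in AEBP2 replicate 2 and 6136 bp for FS2-AEBP2, and 13449 and 14049 bp in the H3K27me3 replicates. The length agreed closely between the H3K27me3 replicates, but the ranks by score did not, at 99.6 and 64.2%. In the AEBP2 lists the ranks were 62.5 and 97.6%, and in the FS2-AEBP2 list 96.6%, the highest of the 6 members with a peak there. The rank of this gene thus moved widely between replicates of both targets.

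*Pou4f2* (Brn3b), a factor of retinal ganglion cells, lies on chr8:80956908-80960551 on the minus strand. Its longest peak measured 3534, 3812 and 2287 bp in AEBP2 replicate 1, AEBP2 replicate 2 and the FS2-AEBP2 list, and 5663 and 6174 bp in the H3K27me3 replicates. AEBP2 peaks of the 2 replicates were closest in length at this gene. Ranks were 77.2, 96.6, 95.6, 98.9 and 89.6%. The FS2-AEBP2 peak began 53 bp after the start site, and 99.6% of its length passed the stricter threshold. A second H3K27me3 peak lay beyond the gene's 3′ end in both replicates, of 6989 and 12341 bp, and held no CpG-rich region. In AEBP2 replicate 2 and in the FS2-AEBP2 list a peak of 1590 and 1167 bp lay there too, with ranks of 57.7 and 9.36%.

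*Pou4f1* (Brn3a), which acts in sensory neurons of the dorsal root and trigeminal ganglia, lies on chr14:104862737-104867216 on the minus strand. Every AEBP2 list had a peak in the gene and at least 1 upstream of it. H3K27me3 peaks of 19589 and 19658 bp spanned the whole gene. AEBP2 replicate 2 had a 3948 bp peak from -897 to 3050 bp, with a rank of 90.6%. The AEBP2 replicate 1 peak in the gene, from 1158 to 3107 bp after the start site, fell just outside the window and had a score above 16.3% of its list. FS2-AEBP2 had a peak between 937 and 2467 bp, so it entered the window by its edge alone and covered 3.20% of it, with a rank of 69.3%. Farther upstream, a peak lay from -6333 to -4853 bp in AEBP2 replicate 1, with a rank of 72.5% that was above that of the peak in the gene. Upstream peaks also ran from -7145 to -3547 bp in AEBP2 replicate 2 and from -5404 to -4917 bp for FS2-AEBP2. They met at a CpG-rich region of 840 bp, of which 91.9, 100 and 58.1% was covered in AEBP2 replicate 1, AEBP2 replicate 2 and the FS2-AEBP2 list. The peaks of AEBP2 replicate 1 and FS2-AEBP2 in the gene lie close to the edge of the 1 kb window, and whether those 2 lists count *Pou4f1* depends on it: with a window of 2.5 kb AEBP2 replicate 1 counted 6 of 7 members, and with 500 bp FS2-AEBP2 counted 5 of 7. *Pou4f1* has 2 annotated transcripts, and with any annotated transcript start AEBP2 replicate 1 also counted 6 of 7 members, all but *Pou3f4*.

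AEBP2 replicate 1 and FS2-AEBP2 shared a stretch of 1310 bp in *Pou4f1*, from 1158 to 2467 bp after the start site. It runs over most of a coding exon (chr14:104864902-104866088), which lies inside the CpG-island-like region of the start site. The central 300 bases, 1663 to 1962 bp after the start site and coding throughout, are shown on the gene's strand with CpGs in capitals, because the 3 AEBP2 lists overlap here inside the gene.
Pou4f1 coding exon, chr14:104865254-104865553 (-): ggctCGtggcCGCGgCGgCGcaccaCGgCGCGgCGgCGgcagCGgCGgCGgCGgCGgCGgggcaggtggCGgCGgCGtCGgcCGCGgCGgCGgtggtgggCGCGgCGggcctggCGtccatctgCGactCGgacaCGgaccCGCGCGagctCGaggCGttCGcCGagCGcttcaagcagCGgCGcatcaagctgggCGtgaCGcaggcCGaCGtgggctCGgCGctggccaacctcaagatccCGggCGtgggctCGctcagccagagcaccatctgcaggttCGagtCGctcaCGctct
This exonic stretch held 53 CpGs at a GC content of 77.0%, against 47 CpGs and 78.0% in the 250 bases before the start site shown above. It was chosen as the centre of the shared stretch, so its coverage in these lists was fixed by that choice. Only its later part passed the stricter threshold of the peak caller. That part began 1882 bp after the start site in AEBP2 replicate 1, 1757 bp in AEBP2 replicate 2 and 1810 bp for FS2-AEBP2.

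**Figure D2:**
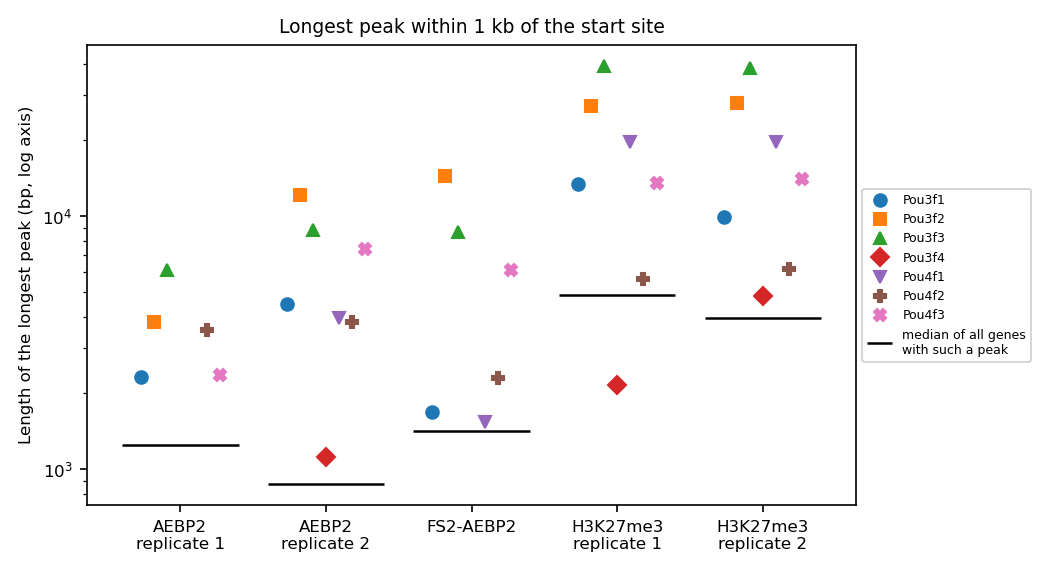
Length in bp, on a log axis, of the longest peak overlapping the start window, for each member (symbols) in each list. Black lines are the medians of all genes with such a peak; *Pou3f4* is lowest wherever it has a peak, and *Pou3f2* or *Pou3f3* is highest in each list.

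Peaks at the members were long. In AEBP2 replicate 1 the median over the 5 members with a start-window peak was 3534 bp, against 1243.5 bp over the 2032 genes with one. In AEBP2 replicate 2 it was 4505 bp over 7 members against 872 bp over 4983 genes, and for FS2-AEBP2 4211.5 bp over 6 members against 1409 bp over 1460 genes. H3K27me3 peaks had a median of 13449 and 14049 bp over the 7 members, against 4864 bp over 3813 genes and 3970.5 bp over 3968 genes. Of the 32 member peaks compared in this way, 31 were longer than the median of all genes in their list, and the exception was *Pou3f4* in H3K27me3 replicate 1. These medians include genes without H3K27me3: of the 4983 genes with an AEBP2 replicate 2 peak, 2289 had H3K27me3 in both replicates. Lengths and ranks were not set beside genes with H3K27me3 in both replicates alone. Joining peaks that lay within 1 kb of each other raised the member median to 6125 bp in AEBP2 replicate 1 and to 6861 bp for FS2-AEBP2, so these lengths depend on where the caller ended a peak.

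The order of the members by length was similar between lists at its ends. *Pou3f2* or *Pou3f3* had the longest peak in each of the 5 lists. In the H3K27me3 replicates the order was *Pou3f3*, *Pou3f2*, *Pou4f1*, *Pou4f3*, *Pou3f1*, *Pou4f2* and *Pou3f4* in both. *Pou4f1* took the third place by H3K27me3 length, whereas among AEBP2 replicate 2 peaks it took the fifth and among FS2-AEBP2 peaks the last place of 6. In AEBP2 replicate 2, *Pou4f1* and *Pou4f2* were neighbours in this order, at 3948 and 3812 bp, and differed by less than the AEBP2 replicates did at any of the 5 members with a start-window peak in both. *Pou4f3* and *Pou3f1* were neighbours by H3K27me3 length and lay at nearly the same value in replicate 1, 13449 and 13398 bp.

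**Figure D3:**
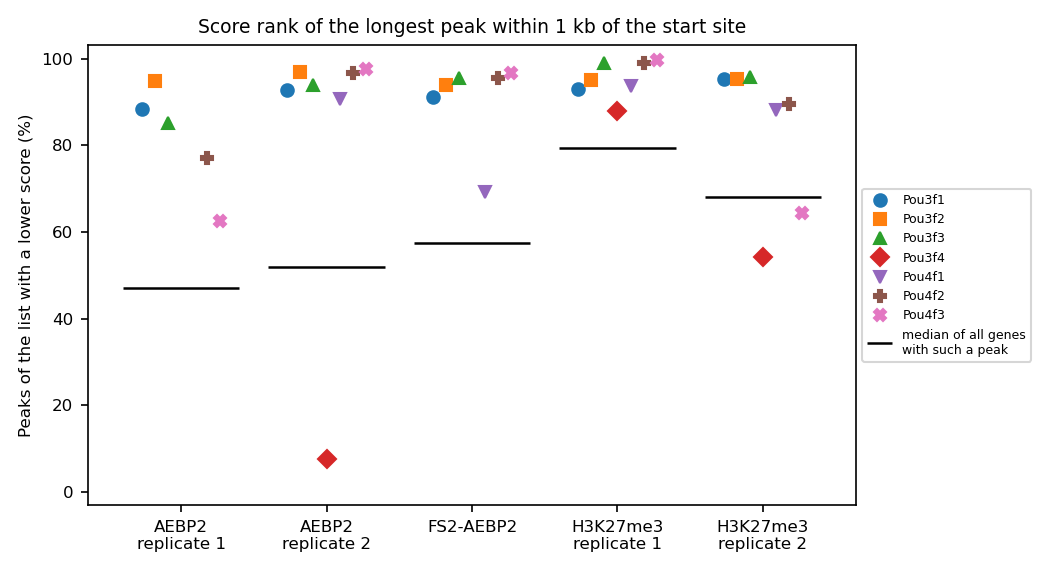
Score rank of the same peaks, as the percentage of peaks in the list with a lower score, with the median of all genes that have such a peak as a black line. Most member peaks rank above 85%, and the lowest points are *Pou3f4* in AEBP2 replicate 2 (7.60%) and H3K27me3 replicate 2 (54.1%).

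Ranks by score were high but less even than lengths. The member medians were 85.0% in AEBP2 replicate 1, 94.0% in AEBP2 replicate 2, 94.7% for FS2-AEBP2, and 95.0 and 89.6% in the H3K27me3 replicates. Over all genes with a start-window peak they were 47.2, 51.9, 57.5, 79.4 and 68.1%. The widest gaps between replicates were those of *Pou4f3*, for AEBP2 and for H3K27me3 alike.

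Within 10 kb either side of the start site, *Pou3f2* was the most covered member in each AEBP2 list, at 62.1% of the bases in AEBP2 replicate 1, 72.3% in replicate 2 and 93.5% for FS2-AEBP2. H3K27me3 peaks covered this 20 kb completely at *Pou3f2* and *Pou3f3* in both replicates. At *Pou3f4* the AEBP2 coverage was 0 in replicate 1 and for FS2-AEBP2 and 5.60% in replicate 2, and H3K27me3 covered 10.7 and 24.1%. The other 4 members lay between, with H3K27me3 coverage from 49.6% (*Pou3f1*, replicate 2) to 92.5% (*Pou4f1*, replicate 1).

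**Figure D4:**
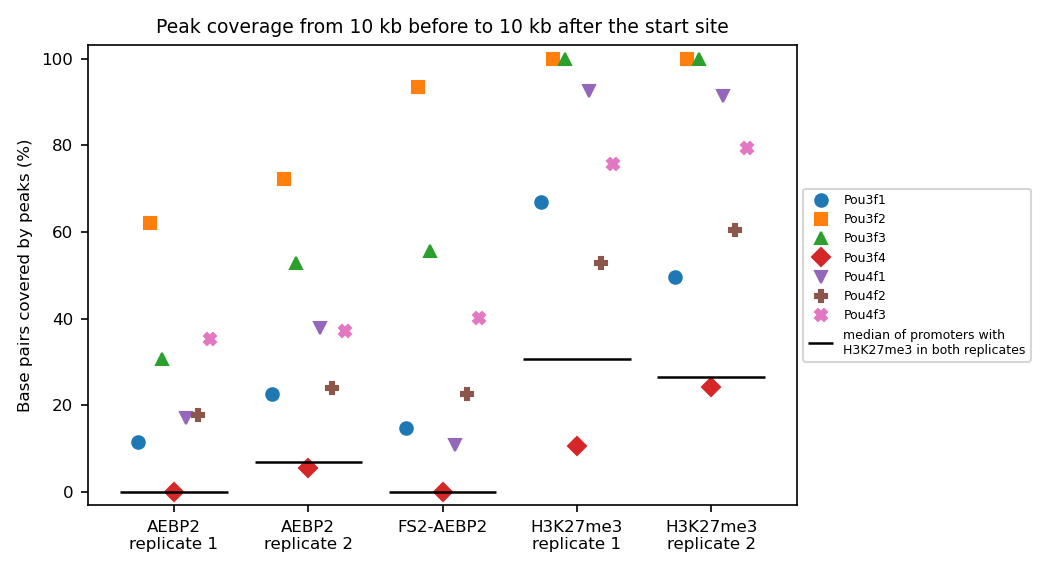
Percentage of the bases from 10 kb before to 10 kb after the start site that lay in peaks, for each member and list. Black lines are the medians of the 3349 genes with a start-window H3K27me3 peak in both replicates, which are 0 in AEBP2 replicate 1 and FS2-AEBP2. In each list 6 of the 7 members are above the line, and *Pou3f4* is at or below it.

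Set beside the 3349 genes with H3K27me3 in both replicates, the member medians of this coverage were 17.7 and 37.2% in the AEBP2 replicates and 22.5% in the FS2-AEBP2 list, against 0, 6.81 and 0%. For H3K27me3 they were 75.7 and 79.4%, against 30.7 and 26.5%. In each list 6 of 7 members were above the median of those genes, and the exception was *Pou3f4*. In AEBP2 replicate 1 and FS2-AEBP2 that median was 0, so any peak base in the 20 kb placed a member above it.

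The replicates of a target could be compared base by base over the same 20 kb. Of the bases covered in either H3K27me3 replicate, 100% were covered in both at *Pou3f2* and *Pou3f3*, 98.7% at *Pou4f1*, 95.4% at *Pou4f3*, 78.2% at *Pou4f2*, 74.1% at *Pou3f1* and 44.4% at *Pou3f4*. The values of 100% mean only that both replicates filled the window. For AEBP2 the shared part ran from 44.4% (*Pou4f1*) to 88.6% (*Pou4f3*) at the 6 members with a peak in both. The AEBP2 replicates differed mainly in extent, since between 96.6% (*Pou4f3*) and 100% of the replicate 1 bases at these members were also in replicate 2, the list with the larger number of peaks. FS2-AEBP2 bases were in AEBP2 replicate 2 for 77.3% (*Pou3f2*) to 100% (*Pou3f1* and *Pou4f1*). Nearly all AEBP2 and FS2-AEBP2 bases at the members lay in peaks of both H3K27me3 replicates, with 98.9% for AEBP2 replicate 2 at *Pou4f2* as the lowest value. At *Pou3f2* and *Pou3f3* this was fixed in advance, because H3K27me3 filled the window. At *Pou4f1* the H3K27me3 replicates covered 92.5 and 91.3% of it, which left little room for another result. The same share over other genes is not given here.

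The H3K27me3 domain of each member, taken as the bases from the first to the last covered by its start-window H3K27me3 peak of either replicate, ran from 4824 bp (*Pou3f4*) to 39942 bp (*Pou3f3*). No other annotated gene lay in any of the 7 domains, apart from the pseudogene record at *Pou3f1*. Together the domains held 19 CpG-island-like regions. Peaks touched 16 of these in AEBP2 replicate 1, 17 in AEBP2 replicate 2 and 16 in the FS2-AEBP2 list. An overlap of 1 bp was enough for a touch, and peaks covered up to 73.0% of a domain (FS2-AEBP2 at *Pou3f2*). No share over the H3K27me3 domains of other genes is given here, so these counts have no reference. The regions without any AEBP2 peak were the downstream one of *Pou3f4* (500 bp) and the downstream one of *Pou4f1* (990 bp).

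Conversely, most AEBP2 peaks in the domains touched a CpG-rich region. Of 13 AEBP2 replicate 1 peaks in the domains 1 touched none, of 11 replicate 2 peaks 0, and of 20 FS2-AEBP2 peaks 7. These counts likewise have no reference share over other genes. The longest domain, that of *Pou3f3*, held 5 CpG-rich regions, from -12950 to 16939 bp around the start site. All 5 had a peak in each AEBP2 list, while 25.4% of the domain was covered in AEBP2 replicate 1, 44.0% in replicate 2 and 42.4% in the FS2-AEBP2 list. Of the CpG-rich bases in that domain, 92.7, 99.9 and 94.1% were covered. At *Pou4f1* coverage was lower, at 17.2, 37.9 and 10.98% of the domain and 42.8, 80.2 and 40.4% of its CpG-rich bases.

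**Figure D5:**
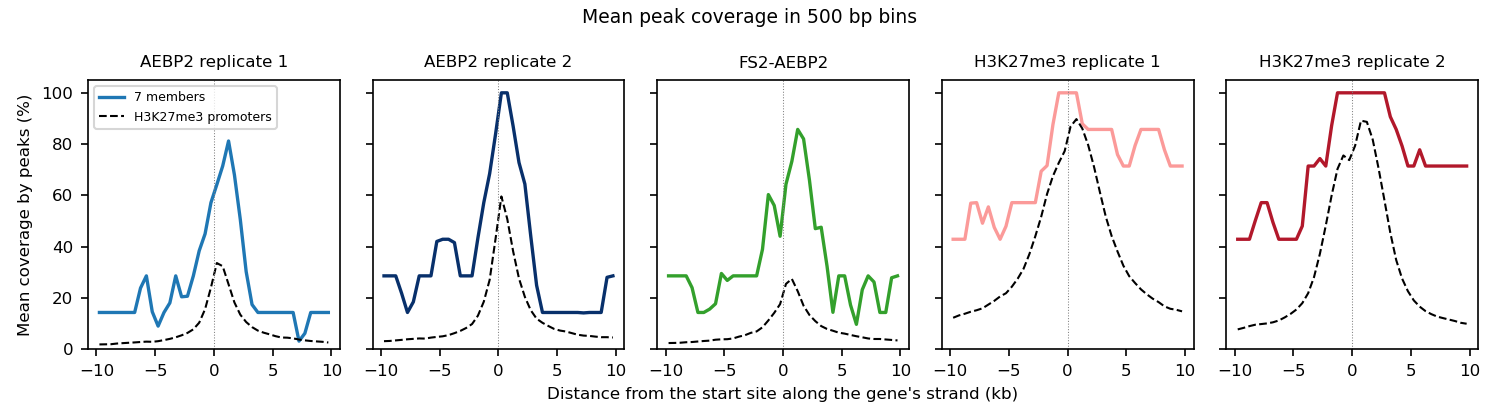
Mean percentage of bases covered by peaks in 500 bp bins from 10 kb before to 10 kb after the start site along the gene's strand, for the 7 members (solid) and the 3349 genes with H3K27me3 in both replicates (dashed), 1 panel per list. Member coverage in AEBP2 replicate 1 and FS2-AEBP2 is highest between 1000 and 1500 bp after the start site.

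Along the gene, the member coverage by AEBP2 and FS2-AEBP2 peaks was highest downstream of the start site. That by H3K27me3 peaks was complete from -1000 to 1000 bp in both replicates, and farther out it was also higher downstream. In each H3K27me3 replicate it was 71.4% from 9500 to 10000 bp, against 42.9% from -10000 to -9500 bp. In AEBP2 replicate 1 the member coverage was 57.1% in the 500 bp before the start site and reached 81.2% between 1000 and 1500 bp after it. For FS2-AEBP2 the same bins gave 44.0 and 85.7%. AEBP2 replicate 2 covered all 7 members from 0 to 1000 bp. Over the 3349 genes with H3K27me3 in both replicates, AEBP2 coverage was highest from 0 to 500 bp in replicate 1 (33.6%) and replicate 2 (59.6%), and from 500 to 1000 bp for FS2-AEBP2 (27.4%). A bin mean over 7 genes moves by up to 14.3 percentage points with 1 gene, so the position of the highest bin is a coarse value.

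In AEBP2 replicate 1 and the H3K27me3 replicates, few GENCODE start sites of members were in the stretches of a peak that passed the stricter threshold. The start site was inside a peak for 4 of 7 members in AEBP2 replicate 1 (6.43% of all genes), 7 in AEBP2 replicate 2 (17.1%), 3 for FS2-AEBP2 (3.24%), and 7 in each H3K27me3 replicate (13.4 and 11.4%). Within a peak, the deposited layout marks inner blocks, the stretches over the caller's stricter threshold. Of those start sites, 0 of 4 were inside an inner block in AEBP2 replicate 1, against 54.5% over all genes whose start site was inside a peak. In AEBP2 replicate 2 there were 4 of 7 against 65.1%, and for FS2-AEBP2 1 of 3 against 45.4%, both close to those shares for so few genes. In the H3K27me3 replicates there were 1 of 7 against 58.9% and 1 of 7 against 48.3%. Over the 5 lists together 7 of 28 start sites in a peak were in an inner block, and the same genes are counted in several lists. *Pou3f1*, *Pou3f3* and *Pou4f2* had their GENCODE start site in no inner block of any list, and the GENCODE record of *Pou3f3* begins at the coding sequence. The RefSeq start site of *Pou3f3*, at -1378 bp, was in an inner block in AEBP2 replicate 2, FS2-AEBP2 and H3K27me3 replicate 1. That of *Pou3f2*, at -33 bp, lay outside the H3K27me3 replicate 2 block that begins at -5 bp. The result for *Pou3f3*, and the counts of the lists in which it changes, therefore depend on the start site used.

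The other POU genes had fewer start-window peaks than the members, at counts near the shares of all genes. Of 8 listed, 7 were found in the annotation, and 3 of these had a CpG-island-like region in the start window. Start-window peaks were present at 1 in AEBP2 replicate 1, 2 in AEBP2 replicate 2, 0 for FS2-AEBP2, and 2 and 1 in the H3K27me3 replicates. *Pou6f1* had H3K27me3 peaks of 3463 and 3020 bp and an AEBP2 replicate 2 peak of 969 bp. *Pou2f1*, a broadly expressed POU gene, had AEBP2 peaks of 286 and 1587 bp and no H3K27me3 peak, and *Pou2f2*, known from B cells, an H3K27me3 replicate 1 peak of 4180 bp. None of the 7 had a peak in all 5 lists, which 4.57% of all genes had. Of the 7, 4 had no start-window peak in any list, among them the pluripotency gene *Pou5f1*. The 2 groups differ in their CpG-rich promoters, 7 of 7 against 3 of 7, and the part of this in the counts was not tested.

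Among genes that work with the neural POU factors or lie downstream of them, 25 of 26 listed were found, and 23 of these had a CpG-island-like region in the start window. Their start windows had a peak at 16 genes in AEBP2 replicate 1 (9.08% of all genes), 20 in AEBP2 replicate 2 (22.3%), 14 for FS2-AEBP2 (6.53%), and 21 and 20 in the H3K27me3 replicates (17.0 and 17.7%), and 13 had one in all 5 lists (4.57%). Among all genes with a CpG-island-like region there, the shares were 16.0, 39.0, 11.4, 24.5 and 27.5% in the 5 lists, in the same order. *Isl1*, a partner of the Pou4f factors in sensory and retinal neurons, had AEBP2 peaks of 1837 and 3361 bp, an FS2-AEBP2 peak of 2799 bp, and H3K27me3 peaks of 23224 and 26018 bp. *Atoh7*, which acts before *Pou4f2* in retinal ganglion cells, had an AEBP2 peak in replicate 2 alone, of 1043 bp, and H3K27me3 peaks of 4359 and 4610 bp. *Atoh1*, which acts before *Pou4f3* in hair cells, had AEBP2 peaks of 1566 and 7604 bp, an FS2-AEBP2 peak of 6222 bp, and H3K27me3 peaks of 8288 and 12796 bp, so the spread between its AEBP2 replicates was as wide as at *Pou4f3*. *Runx1* and *Runx3* had no start-window peak but gene-body peaks in all 5 lists. The genes *Sox2*, *Myt1l*, *Runx1* and *Runx3* were those with no start-window peak in any list.

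The gene most like each member in coverage was found among all other protein-coding genes from the 5 percentages of the 20 kb covered, as the smallest Euclidean distance in percentage points. For *Pou3f4* it was *Gpr63*, at 2.03, the closest match of any member. *Pou3f1* was closest to *Shisa6* (7.05), *Pou4f2* to *Tchh* (7.05), *Pou4f3* to *Gdnf* (9.44) and *Pou3f3* to the LIM homeobox gene *Lhx4* (10.7). *Pou4f1* was closest to *Cdkn1c* (11.1) and *Pou3f2* to *Hoxc5* (15.2). *Pou3f2*, with the most AEBP2 coverage, thus had the most distant nearest gene. These distances are taken over 5 lists, of which replicates of a target are not independent features.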

How the data were processed

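ChIP-seq was measured in WT mESCs with antibodies against AEBP2, H3K27me3 and, for FS2-AEBP2, the tag. The authors called peaks in each sample and deposited 5 lists in mm9 coordinates, with the start, the end, the inner blocks and a score for each peak. The deposited score is a whole number whose scale is not given in the sources used here. The submitters' processing notes name Bowtie, SAMtools, Picard and MACS2 (2.0.10.2). The lists hold no read counts, so no interval could be given. Broad calling joins neighbouring enriched stretches, which affects peak lengths and numbers. The SUZ12, input and *Aebp2* mutant libraries of the series were not used here.

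Lists were matched to samples by the sample records, and groups were taken from the labels. The series' design text calls them biological replicates. Start sites were the 5′ ends of GENCODE vM1 protein-coding gene records. Peaks on 21 chromosomes overlapping by at least 1 bp the window of 1 kb either side, or the gene body, were counted, and 1 bp end blocks, which only mark the ends of a peak, were removed. CpG-island-like regions (20672) used 500 bp windows every 10 bp. RefSeq promoter sequences (a GRCm38.p6 table) matched 5 of 7 members and were placed on mm9 by exact match. The named genes were the members, the other POU genes, neural partners and targets, the mESC markers, and the nearest gene of each member by coverage. A listed gene enters the counts and is not reported here by itself. The members and lists were chosen with earlier results of these data known. No statistical test was made, since each sample has 1 list of calls. Counting was tested on simulated lists. Python 3.11.15, numpy 2.4.6, pysam 0.24.0, matplotlib 3.10.9 and samtools 1.23.1 were used. Alternatives were other windows, minimum overlaps, score limits, start sites, joined peaks and each replicate left out.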

Additional observations from a re-analysis of the deposited data

How the results depend on the processing

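Every count of members stayed within 1.5 times its value under the alternatives run, and 14 of 56 alternatives for the start window and 4 of 10 for the gene body changed a count at all. With 7 members and main counts of 5 to 7, no count could rise beyond that limit, so staying within it says little. Apart from leaving out a replicate, the changes came from *Pou4f1*, *Pou3f4* and *Pou3f1*. With each replicate left out in turn, the count for both AEBP2 replicates ranged from 5 to 7, that for both H3K27me3 replicates was 7, and that for all 5 lists ranged from 5 to 6. RefSeq start sites, an alternative chosen after seeing the data, gave the same start-window counts. The counts of start sites in inner blocks were not repeated with them. Median length was the measure that moved: with peaks within 1 kb joined it was 6125 bp in AEBP2 replicate 1 and 6861 bp for FS2-AEBP2, whereas the other 8 alternatives for median length stayed within 1.5 times. No paired analysis was possible because the results come from no test. Without read counts the depth is unknown, so a missing peak, such as those of *Pou3f4* in AEBP2 replicate 1 and FS2-AEBP2, is not evidence that AEBP2 is absent. FS2-AEBP2 has no replicate.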
